A study of Danio rerio with 12 samples.

Results

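The red cell genes described here are 9 of the 32312 features that the deposited tables of this zebrafish (Danio rerio) series list. They are the globins hbbe1.1 and hbae3, the heme synthesis enzymes alas2, cpox, urod and fech, the mitochondrial iron importer slc25a37, and the membrane genes slc4a1 and epb41. They were chosen by name, and all 9 occur in each of the 6 tables. The study sorted GFP-positive and GFP-negative cells by fluorescence from dissociated whole animals carrying a transgene meant to mark catecholaminergic neurons, the cells that make dopamine or noradrenaline. The 12 libraries form 6 experiments, each with 1 GFP-positive and 1 GFP-negative library.

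The ETvmat2:GFP line, an enhancer trap, and the line Tg(otpb.A:egfp)zc48, driven by a dopaminergic enhancer, were both sorted at 24 h after fertilization. A th:Gal4VP16 driver with a UAS:EGFP responder was sorted at 36 and 48 h, and a th:GFP BAC line at 72 and 96 h. Per the series' design text, the otpb line also marks some preoptic neurons, the vmat2 and otpb lines mark further cell populations at later stages, and the th lines label catecholaminergic neurons poorly at early ones. NanoCAGE, a method that sequences from capped transcript starts, was applied to total RNA at 24 h, and amplified polyadenylated RNA was sequenced at the other ages. Line and age change together between most experiments. The 36 h and 48 h experiments share a line and an assay, as do the shallow 72 h and 96 h experiments. No group has a replicate, so each difference compares 2 libraries, each interval covers counting error only, and no p-value is given.

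Hemoglobin carries oxygen and is built from alpha-type and beta-type globin chains, each holding a heme, an iron atom in a porphyrin ring. Heme is made in a chain of enzymes that starts and ends in the mitochondrion: alas2 starts it in red cells, urod and cpox trim the porphyrin side chains, and fech inserts the iron that slc25a37 brings in. In the fish embryo the first red cells are nucleated, enter the blood stream when the heart starts to beat, and express embryonic globins that later give way to adult ones. Several of these genes were found through anaemic zebrafish mutants named after wines, such as sauternes (alas2), yquem (urod), frascati (slc25a37), retsina (slc4a1) and merlot (epb41b).

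Depth differed widely between experiments. Exon reads per library ranged from 495373 to 1367216 at 24 h, from 21326333 to 27682819 at 36 and 48 h, and from 52869 to 79653 at 72 and 96 h. Ratios are given as log2 of GFP-positive over GFP-negative after TMM scaling, a scaling that assumes that most genes do not differ. Scaling on total exon reads instead would shift the log2 ratios. For genes with many reads it would add 0.66 in the vmat2 experiment, 0.26 in otpb, -0.78 at 36 h and 0.12 at 48 h. At 72 and 96 h it would add -0.04 and -0.01. Ratios of genes with few reads would shift by less, as that of hbae3 in vmat2, from -0.89 to -0.3. Library names are given in the headers of the vmat2 table alone. In the other tables the direction was taken to be the same as in that one, and every direction given for a table would turn if it were not. With that direction, the catecholaminergic markers th, ddc, dbh and slc18a2, 4 of the 6 listed, had more reads together in the GFP-positive library of all 6 experiments: in GFP-positive and GFP-negative cells there were 24 and 0 in vmat2, 6 and 0 in otpb, 355 and 54 at 36 h, 584 and 126 at 48 h, then 37 and 0 (72 h) and 22 and 0 (96 h). At 24 h ddc and dbh had no read in any of the 4 libraries, and at 36 h slc18a2 had 0 reads in the GFP-positive and 8 in the GFP-negative library.

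At 36 and 48 h all 9 red cell genes were lower, relative to library size, in GFP-positive than in GFP-negative cells, with log2 ratios down to -4.75, and all 9 intervals lay below 0 at both ages. At 72 h the 2 globins stood the other way round, at 2.41 and 2.03, while the other 7 genes had 0 to 2 reads in either library. At 24 h the genes were split in the vmat2 experiment, where urod and fech were higher in GFP-positive cells and hbbe1.1 was lower. In the otpb experiment all 9 log2 ratios lay below 0, from -3.78 to -0.35, and 4 of the 9 intervals did. There cpox and slc25a37 had 2 reads each in GFP-positive cells. In these bulk libraries fewer red cells and less red cell RNA per cell cannot be told apart.

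**Figure D1:**
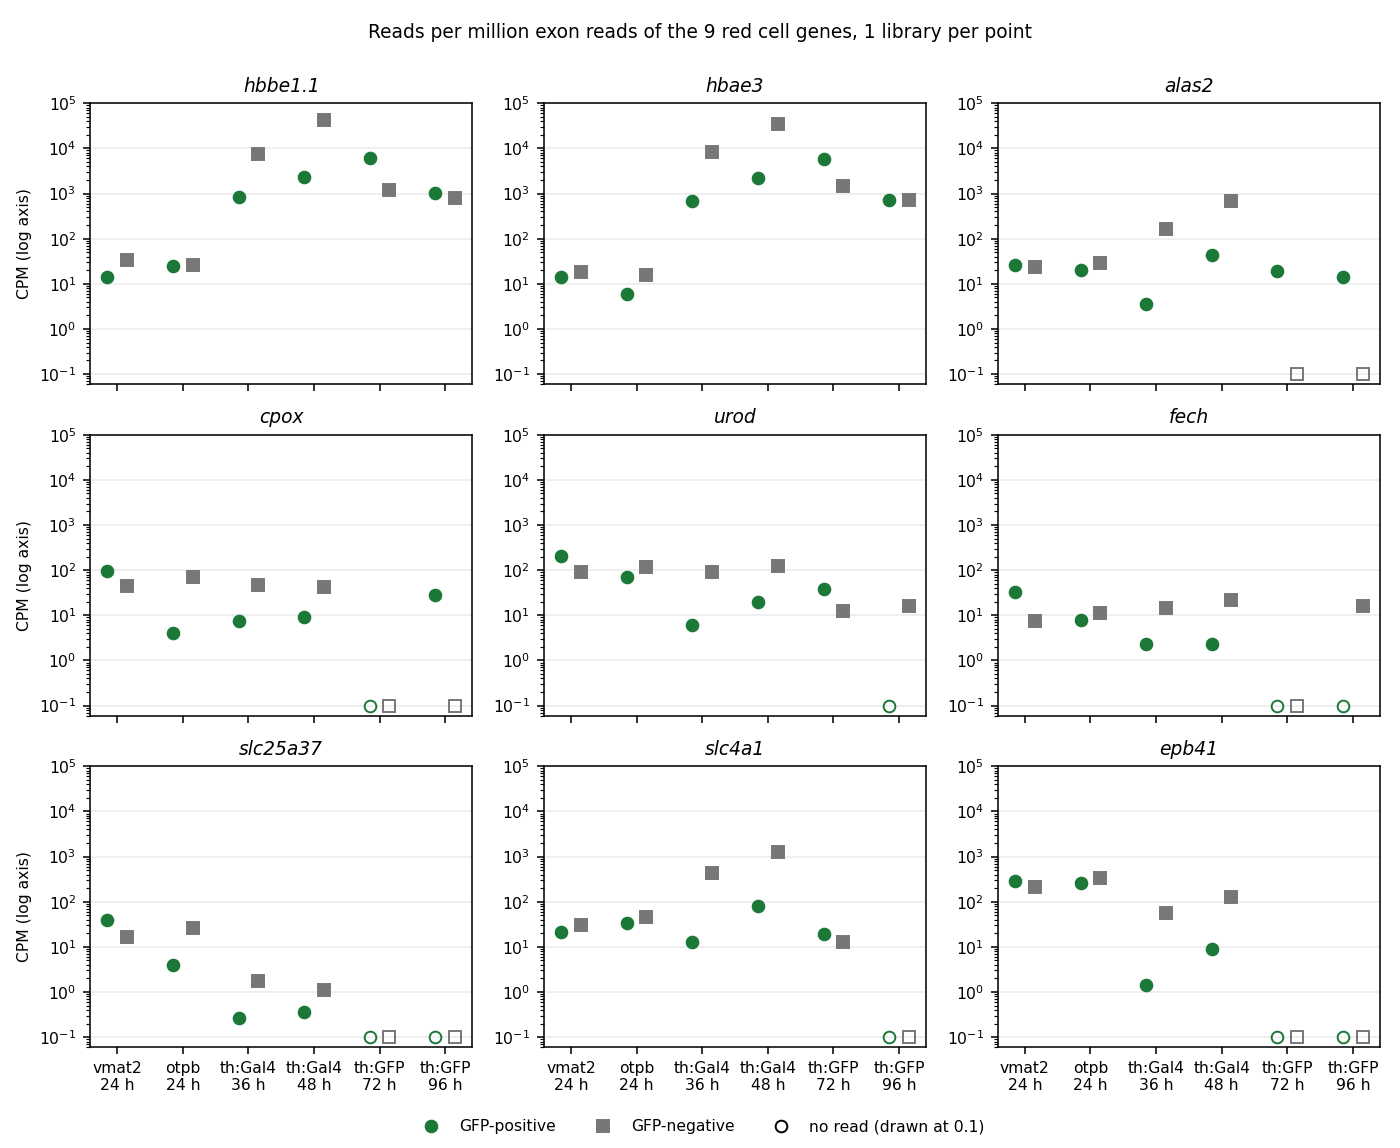
Exon reads scaled to library size (CPM, log axis) of the 9 red cell genes in the 12 libraries, with GFP-positive libraries as green circles to the left of GFP-negative libraries as grey squares; an open symbol, drawn at 0.1, is a library without a read. The GFP-positive library lies below the GFP-negative one for all 9 genes at 36 and 48 h, and the globin symbols change places at 72 h.

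These 2 globin genes lie close together on chromosome 3 of the Zv9 build used by the tables. The feature hbbe1.1, a beta-type embryonic globin, spans chr3:55965769-55983608 with 7 exons, and hbae3, an alpha-type embryonic globin, spans chr3:55998269-55999416 with 6 exons. The hbbe1.1 feature overlaps 4 other globin features, hbae1, si:ch211-5k11.2 and both features named si:busm1-118j2.5. The vmat2 table, the one whose unique read counts were used, gives hbbe1.1 0 unique of 13 exon reads in the GFP-positive library and 2 of 39 in the GFP-negative library. All 13 and 21 reads of hbae3 were unique there. How hbbe1.1 reads divide among near-identical copies is therefore uncertain, while hbae3 does not share that limit in the vmat2 table.

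Hbbe1.1 had 13 reads in GFP-positive and 39 in GFP-negative cells of the vmat2 experiment, and 12 and 36 reads in GFP-positive and GFP-negative cells of the otpb experiment. The log2 ratio was -1.73 (interval -2.92 to -0.95) in vmat2 and -0.35 (-1.46 to 0.60) in otpb. Exon reads of hbbe1.1 were thus scarce at 24 h in these libraries, and of the 2 experiments the vmat2 one had an hbbe1.1 interval below 0. At 36 h hbbe1.1 stood at 834.0 CPM in GFP-positive and 7368.3 CPM in GFP-negative cells, a log2 ratio of -2.37 (-2.39 to -2.35). At 48 h it stood at 2273.2 CPM in GFP-positive and 41833.6 CPM in GFP-negative cells, a log2 ratio of -4.32 (-4.33 to -4.31). In the 48 h GFP-negative library it was the feature with the 2nd most reads, and in the GFP-positive library it ranked 82nd. At 72 h hbbe1.1 had 326 reads, or 6166.2 CPM, in GFP-positive cells, against 93 reads, or 1167.6 CPM, in GFP-negative cells, and the log2 ratio was 2.41 (2.11 to 2.79). The 96 h libraries had 71 reads in GFP-positive and 51 in GFP-negative cells, and the interval of the log2 ratio of 0.32 (-0.20 to 0.88) held 0.

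Hbae3 was also scarce at 24 h. It had 13 reads in GFP-positive and 21 in GFP-negative cells of the vmat2 experiment, and 3 in GFP-positive and 21 in GFP-negative cells of the otpb experiment. Both log2 ratios, -0.89 (-2.12 to 0.07) and -1.29 (-3.99 to 0.14), had intervals that held 0. At 36 h it stood at 683.6 CPM in GFP-positive and 8106.1 CPM in GFP-negative cells, and at 48 h at 2192.9 CPM in GFP-positive and 34974.8 CPM in GFP-negative cells. The log2 ratios were -2.79 (-2.82 to -2.77) and -4.12 (-4.13 to -4.10), so the GFP-positive library was lower at both ages. At 72 h it had 315 reads, or 5958.1 CPM, in GFP-positive and 118 reads, or 1481.4 CPM, in GFP-negative cells, with a log2 ratio of 2.03 (1.74 to 2.37) that was 1.99 with library size scaling and 1.76 with TMM factors from all features, both under 4-fold. At 96 h the GFP-positive and GFP-negative libraries had 50 and 46 reads (log2 ratio -0.02, interval -0.63 to 0.59).

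The globin ratio at 72 h came from libraries of 52869 GFP-positive and 79653 GFP-negative exon reads, where hbbe1.1 and hbae3 ranked 15th and 19th by reads in the GFP-positive and 143rd and 132nd in the GFP-negative library. Reads of other blood cell and vessel markers were few in the same libraries. The 11 measured leukocyte genes had 3 reads together in GFP-positive and 19 in GFP-negative cells, with lyz, the most abundant, at 2 and 6 reads, and ptprc, csf1ra, il1b and cxcr3.2 at 0 in both. The 11 endothelial genes had 0 and 2 reads in GFP-positive and GFP-negative cells. Of the wider lists described below, red cell membrane genes had 20 and 26 reads (log2 ratio 0.24, interval -0.66 to 1.15). Erythroid factors had 12 and 32 (-0.71, interval -1.87 to 0.22), and further heme synthesis genes 14 and 9 (1.08, interval -0.04 to 2.66). Iron and heme handling genes had 145 and 154 (0.54, interval 0.21 to 0.88), most of them from fth1a.

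A list of 13 globin features of chromosomes 3 and 12, was put together after their values had been seen. Together they held 0.562% of exon reads in GFP-positive and 4.84% in GFP-negative cells at 36 h, and 1.03% in GFP-positive and 17.9% in GFP-negative cells at 48 h. At 72 h they held 1.52% in GFP-positive and 0.375% in GFP-negative cells, and at 96 h 0.216% and 0.192% in GFP-positive and GFP-negative cells. Of the 11 features with at least 5 CPM and 20 reads in the larger library at 48 h, all 11 were at least 4-fold lower in GFP-positive cells. Their median log2 ratio was -4.28, and 1.22% of all passing features were as much lower. These 11 include hbbe1.1 and hbae3, and also ba1l and hbaa1, which reached 20 reads in the GFP-negative library only. Those 11 ratios lay close together, from -4.05 for hbbe3 to -4.94 for hbaa1, apart from ba1l, an adult-type beta globin, which had 0 reads in GFP-positive and 158 in GFP-negative cells. The features are not independent: hbbe1.1 overlaps 4 of the others, and few or none of the reads of these were unique in the vmat2 experiment. Like ratios can thus come from shared reads, and whether the sums count a read more than once is not known. The adult-type alpha globin hbaa1 had 9 reads in GFP-positive and 342 in GFP-negative cells at 48 h, and at 36 h 30 in GFP-positive and 55 in GFP-negative cells. Hbae1 stood apart from the other passing globins at 36 h, with 611 and 2309 reads in GFP-positive and GFP-negative cells and a log2 ratio of -1.24 (-1.37 to -1.11).

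At 24 h the globin features did not all point one way. In the otpb experiment si:ch211-5k11.2, an alpha-type embryonic globin feature that the RefSeq gene table (assembly GRCz12tu) matches to hbae1.2 and hbae1.3, had 118 reads in GFP-positive and 39 in GFP-negative cells, a log2 ratio of 2.72 (2.27 to 3.36). In the same experiment the longer si:busm1-118j2.5 feature had 8 and 77 reads in GFP-positive and GFP-negative cells (-1.91, interval -3.32 to -1.01). In the vmat2 experiment the reads of si:ch211-5k11.2 were 121 in GFP-positive and 111 in GFP-negative cells, of which none was unique. The sum over all 13 features in otpb was therefore higher in GFP-positive cells, 173 reads against 274 in the deeper GFP-negative library (log2 ratio 0.54, interval 0.26 to 0.82), while the 2 globin genes hbbe1.1 and hbae3 alone gave -0.68 (-1.65 to 0.12).

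**Figure D2:**
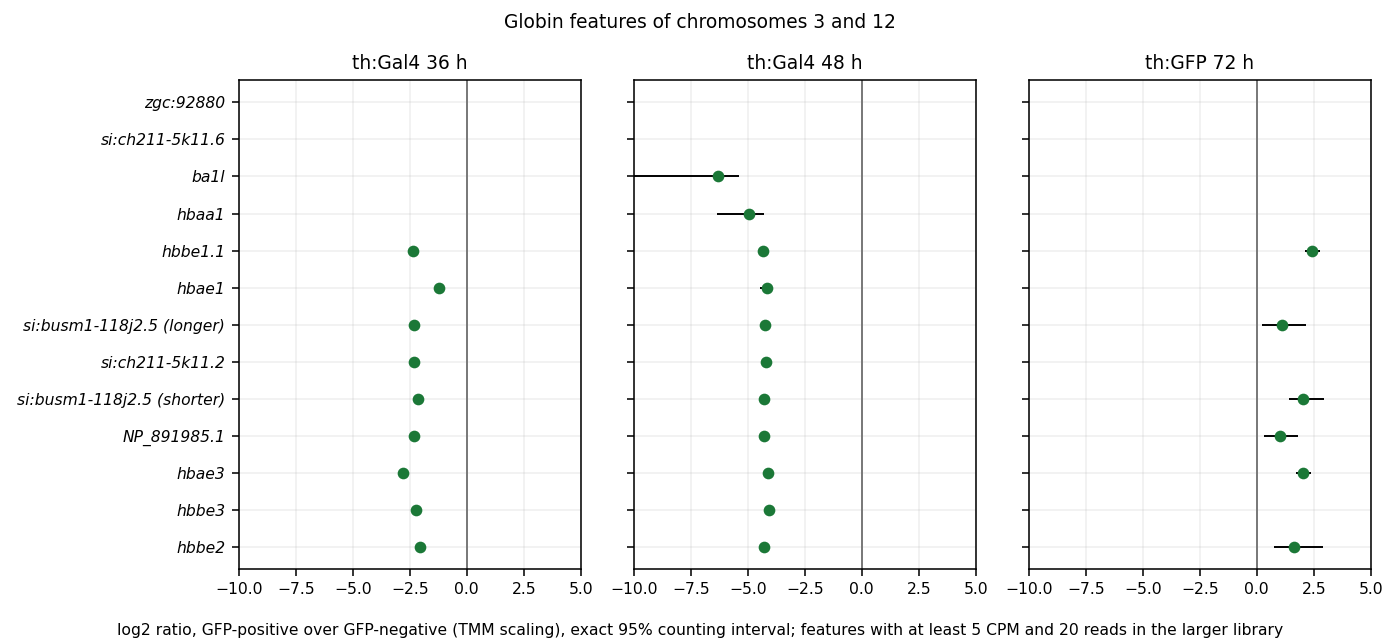
Log2 ratio of GFP-positive over GFP-negative libraries for 13 globin features at 36, 48 and 72 h, with 95% counting intervals; features with fewer than 5 CPM or 20 reads in the larger library have no symbol, and the interval of ba1l is open to the left. The 11 features shown at 48 h all lie left of 0, and the 6 shown at 72 h all lie right of it.

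Among the enzymes of heme synthesis, alas2 (5-aminolevulinate synthase 2, the erythroid enzyme that starts the pathway; chromosome 8, 21891896 to 21907046) had few reads at 24 h. It had 24 reads in GFP-positive and 28 in GFP-negative cells of the vmat2 experiment, and 10 and 40 in GFP-positive and GFP-negative cells of the otpb experiment. Neither 24 h interval left out 0. At 36 h it had 80 reads, or 3.51 CPM, in GFP-positive cells against 3520 reads, or 165.1 CPM, in GFP-negative cells. At 48 h it had 1067 reads, or 42.7 CPM, in GFP-positive cells against 18760 reads, or 677.7 CPM, in GFP-negative cells. The log2 ratios were -4.75 (-5.12 to -4.46) at 36 h and -4.11 (-4.20 to -4.02) at 48 h, and alas2 was the member furthest below 0 at 36 h. At 72 and 96 h alas2 had 1 read in each GFP-positive library and 0 in each GFP-negative library, which at this depth shows no difference.

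Urod (uroporphyrinogen decarboxylase, chromosome 2, 27704338 to 27723973) had 194 reads in GFP-positive and 106 in GFP-negative cells of the vmat2 experiment, a log2 ratio of 0.56 (0.22 to 0.92). In otpb it had 35 reads in GFP-positive and 163 in GFP-negative cells, a log2 ratio of -0.99 (-1.58 to -0.48). The 2 lines of the same age thus had intervals on opposite sides of 0 for this gene. The th:Gal4 libraries had 139 reads in GFP-positive and 1919 in GFP-negative cells at 36 h (-3.09, interval -3.37 to -2.86), and at 48 h 502 and 3493 reads in GFP-positive and GFP-negative cells (-2.77, interval -2.91 to -2.64).

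Cpox (coproporphyrinogen oxidase, chromosome 8, 19121105 to 19137938) had 86 reads in GFP-positive and 53 in GFP-negative cells of the vmat2 experiment (log2 ratio 0.38, interval -0.12 to 0.91). In otpb it had 2 reads in GFP-positive and 99 in GFP-negative cells, and the log2 ratio of -3.78 (-7.49 to -2.53) was the furthest below 0 of the 9 genes there. The 36 h libraries had 167 reads in GFP-positive and 1002 in GFP-negative cells (-1.89, interval -2.15 to -1.67), and at 48 h 232 and 1196 in GFP-positive and GFP-negative cells (-2.33, interval -2.55 to -2.14). Among the 8 genes that passed the minimum of 5 CPM and 20 reads, cpox was the one nearest to 0 at 48 h.

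Fech (ferrochelatase, which puts iron into the porphyrin; chromosome 21, 1970835 to 1996552) had 30 reads in GFP-positive and 9 in GFP-negative cells of the vmat2 experiment, a log2 ratio of 1.27 (0.32 to 2.69) and the highest of the 9 genes there. In otpb it had 4 reads in GFP-positive and 15 in GFP-negative cells, under the minimum. Both th:Gal4 pairs lay below 0: at 36 h fech had 54 reads in GFP-positive and 309 in GFP-negative cells (-1.81, interval -2.28 to -1.41), and at 48 h 59 and 609 in GFP-positive and GFP-negative cells (-3.30, interval -3.75 to -2.95). Summed, the reads of the 4 enzymes gave log2 ratios of 0.46 in vmat2, -1.41 in otpb, -3.25 at 36 h and -3.67 at 48 h.

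Slc25a37 (mitoferrin, which carries iron into the mitochondrion; chromosome 8, 52577295 to 52604438) was sparse in the polyadenylated libraries. It had 36 reads in GFP-positive and 19 in GFP-negative cells of vmat2 (0.57, interval -0.22 to 1.5), and 2 in GFP-positive and 35 in GFP-negative cells of otpb (-2.35, interval -6.02 to -0.96). Despite the greater depth, there were 6 reads in GFP-positive and 37 in GFP-negative cells at 36 h, and 9 in GFP-positive and 31 in GFP-negative cells at 48 h. Both pairs were under 5 CPM, and their log2 ratios were -1.71 (-3.48 to -0.69) and -1.56 (-3.01 to -0.65).

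Slc4a1 (band 3, the anion exchanger of the red cell membrane; chromosome 3, 19955146 to 19981409; slc4a1a in RefSeq) had 20 reads in GFP-positive and 35 in GFP-negative cells of vmat2, and 17 and 63 in GFP-positive and GFP-negative cells of otpb. The vmat2 log2 ratio of -1.03 (-1.98 to -0.28) was -0.42 under library size scaling, and its interval then held 0. By 36 h it had 290 reads, or 12.7 CPM, in GFP-positive cells against 9235 reads, or 433.0 CPM, in GFP-negative cells, and at 48 h 2013 reads, or 80.5 CPM, in GFP-positive cells against 34425 reads, or 1243.6 CPM, in GFP-negative cells. The log2 ratios, -4.31 (-4.49 to -4.14) and -4.07 (-4.14 to -4.01), were close to those of alas2 at both ages. At 72 h there was 1 read in each library.

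Epb41 (protein 4.1, which ties the membrane to the spectrin skeleton; chromosome 16, 28700399 to 28738953; epb41b in RefSeq) was the member with most reads at 24 h. It had 264 reads in GFP-positive and 250 in GFP-negative cells of vmat2 (-0.23, interval -0.48 to 0.03; 0.43 with library size scaling), and 126 and 461 reads in GFP-positive and GFP-negative cells of otpb (-0.66, interval -0.96 to -0.38). The 36 h pair had 33 reads in GFP-positive and 1181 in GFP-negative cells, and at 48 h 229 and 3492 in GFP-positive and GFP-negative cells. The log2 ratios were -4.42 (-5.03 to -3.98) at 36 h and -3.89 (-4.10 to -3.71) at 48 h. Epb41 was thus among the members furthest below 0 at 36 h. Its 24 h ratios, of which the otpb one had an interval below 0, come from other lines and another assay.

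**Figure D3:**
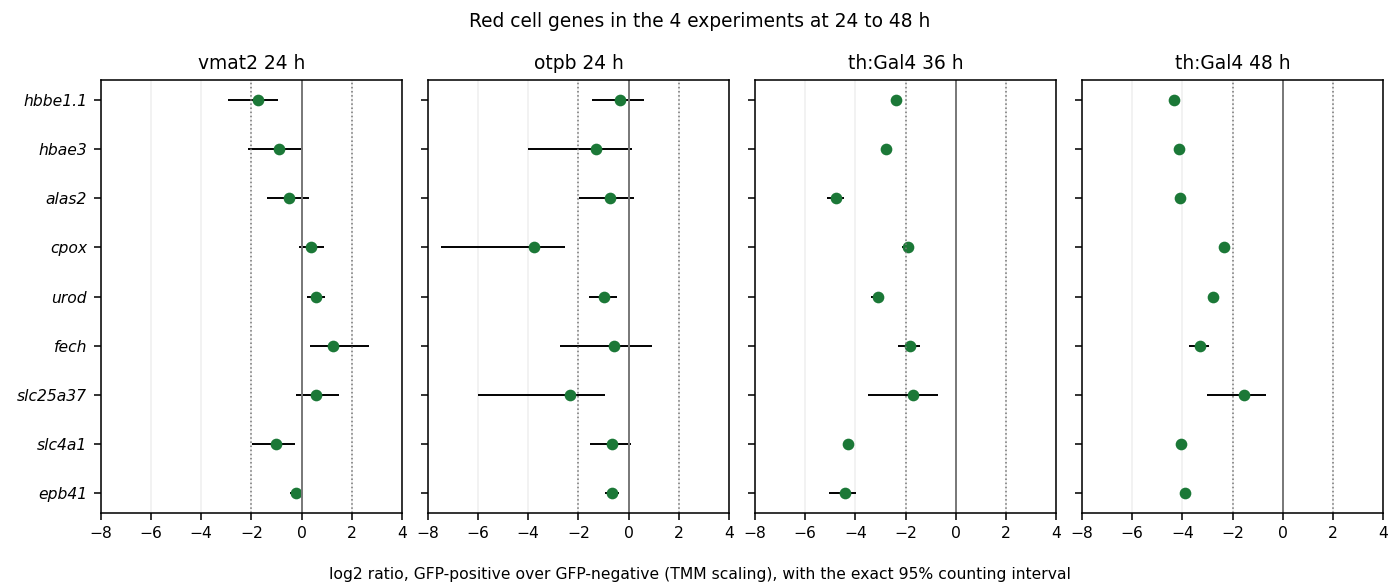
Log2 ratio of GFP-positive over GFP-negative libraries for the 9 red cell genes in the 4 experiments from 24 to 48 h, with exact 95% counting intervals; dotted lines mark 4-fold differences. The vmat2 points lie on both sides of 0, from -1.73 to 1.27, and all 9 points at 36 and 48 h lie left of it. All 9 otpb points lie left of 0 as well, from -3.78 to -0.35, with 4 of the 9 intervals wholly left of it.

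Counted against the background of each experiment, 8 of the 8 members that passed the minimum at 48 h were at least 4-fold lower in GFP-positive cells, where 1.22% of all passing features were. At 36 h it was 6 of 8, cpox and fech being the exceptions, against 1.65% of passing features. In otpb it was 2 of 8 (cpox and slc25a37) against 6.24%, and in vmat2 0 of 9 against 3.6%. Some of the members counted as lower passed through the GFP-negative library only, where they are high. These were cpox and slc25a37 in otpb, with 2 reads each in GFP-positive cells. At 36 h they were alas2 and epb41, at 3.51 and 1.45 CPM in GFP-positive cells, and at 48 h fech, at 2.36 CPM. At 72 h the 2 members that passed, both globins, were at least 4-fold higher, against 2.89% of passing features, and 7.95% of features were at least 4-fold lower there. At 96 h the same 2 globins passed and neither was 4-fold lower or higher, against 0.439% and 0.0% of features. No member was at least 4-fold higher in the other 4 experiments, where 10.9% (vmat2), 3.3% (otpb), 5.67% (36 h) and 9.3% (48 h) of passing features were. The median log2 ratio of the passing members was -2.94 at 36 h and -3.98 at 48 h, beside -0.05 and -0.06 for all passing features. In vmat2 and otpb the medians were -0.23 and -0.86, beside 0.08 and -0.28 for all passing features.

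Per length of transcript, the globins were far ahead of the other genes in both 48 h libraries. In GFP-positive cells hbae3 stood at 3157.1 RPKM and hbbe1.1 at 1991.2 RPKM, and in GFP-negative cells at 50080.3 and 36444.9 RPKM. The next levels in GFP-positive cells were 18.1 RPKM for slc4a1, 12.6 for urod and 11.7 for alas2, and in GFP-negative cells 277.7 RPKM for slc4a1, 185.0 for alas2 and 78.9 for urod. Alas2 and urod thus changed places between the libraries. Below them came cpox at 3.71 RPKM, epb41 at 1.35, fech at 0.40 and slc25a37 at 0.113 in GFP-positive cells. In GFP-negative cells epb41 stood at 18.5 RPKM, cpox at 17.2, fech at 3.71 and slc25a37 at 0.350, so cpox and epb41 changed places as well. The 24 h reads start at capped 5′ ends and do not scale with length, so no such order is given for them.

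Dividing the reads of each gene by the hbae3 reads of the same library gives a value that no scaling between libraries touches. At 48 h alas2 had 19.5 reads per 1000 hbae3 reads in GFP-positive cells (18.3 to 20.7) and 19.4 in GFP-negative cells (19.1 to 19.7). Slc4a1 had 36.7 (35.1 to 38.4) in GFP-positive and 35.6 (35.2 to 35.9) in GFP-negative cells. The proportions of alas2 and slc4a1 to hbae3 were thus within counting error of each other in the 48 h libraries, and epb41, at 4.18 (3.65 to 4.75) in GFP-positive and 3.61 (3.49 to 3.73) in GFP-negative cells, had intervals that overlap as well. The intervals of the other 5 genes did not overlap. Per 1000 hbae3 reads cpox had 4.23 (3.70 to 4.81) in GFP-positive and 1.24 (1.17 to 1.31) in GFP-negative cells. Urod had 9.15 (8.37 to 9.99) in GFP-positive and 3.61 (3.49 to 3.73) in GFP-negative cells, and fech 1.08 (0.819 to 1.39) in GFP-positive and 0.629 (0.580 to 0.681) in GFP-negative cells. Slc25a37, on 9 and 31 reads, had 0.164 (0.075 to 0.312) in GFP-positive and 0.032 (0.0218 to 0.0454) in GFP-negative cells. These 4 genes were higher relative to hbae3 in GFP-positive cells, and hbbe1.1, at 1036.6 (1024.5 to 1048.9) in GFP-positive and 1196.1 (1192.9 to 1199.3) in GFP-negative cells, was lower.

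At 36 h the same proportions differed for 7 of the 8 genes, slc25a37 being the exception. Per 1000 hbae3 reads, alas2 had 5.14 (4.07 to 6.40) in GFP-positive and 20.4 (19.7 to 21.1) in GFP-negative cells. Slc4a1 had 18.6 (16.5 to 20.9) in GFP-positive and 53.4 (52.3 to 54.6) in GFP-negative cells, and epb41 2.12 (1.46 to 2.98) in GFP-positive and 6.83 (6.45 to 7.23) in GFP-negative cells. These 3 genes were lower relative to hbae3 in GFP-positive cells, beyond counting error. Cpox, at 10.7 (9.15 to 12.5) in GFP-positive and 5.80 (5.44 to 6.17) in GFP-negative cells, and fech, at 3.47 (2.60 to 4.53) in GFP-positive and 1.79 (1.59 to 2.00) in GFP-negative cells, were higher relative to hbae3. Urod, at 8.93 (7.50 to 10.5) in GFP-positive and 11.1 (10.6 to 11.6) in GFP-negative cells, was slightly lower. Hbbe1.1 was higher relative to hbae3 in GFP-positive cells at 36 h, at 1220.0 (1194.4 to 1246.2), than in GFP-negative cells, at 909.0 (902.8 to 915.2).

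At 72 h the GFP-positive library, with 315 hbae3 reads, held 1 read of slc4a1 and 1 of alas2. That is 3.17 per 1000 hbae3 reads for each, with an upper bound of 17.8, while the 48 h values were 36.7 and 19.5 in GFP-positive cells. The GFP-negative library at 72 h had 118 hbae3 reads, with 1 read of slc4a1 (8.47 per 1000, interval 0.213 to 48.1) and 0 of alas2 (up to 31.8). Line, age and depth all differ from the 48 h experiment, so these values stand side by side only.

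**Figure D4:**
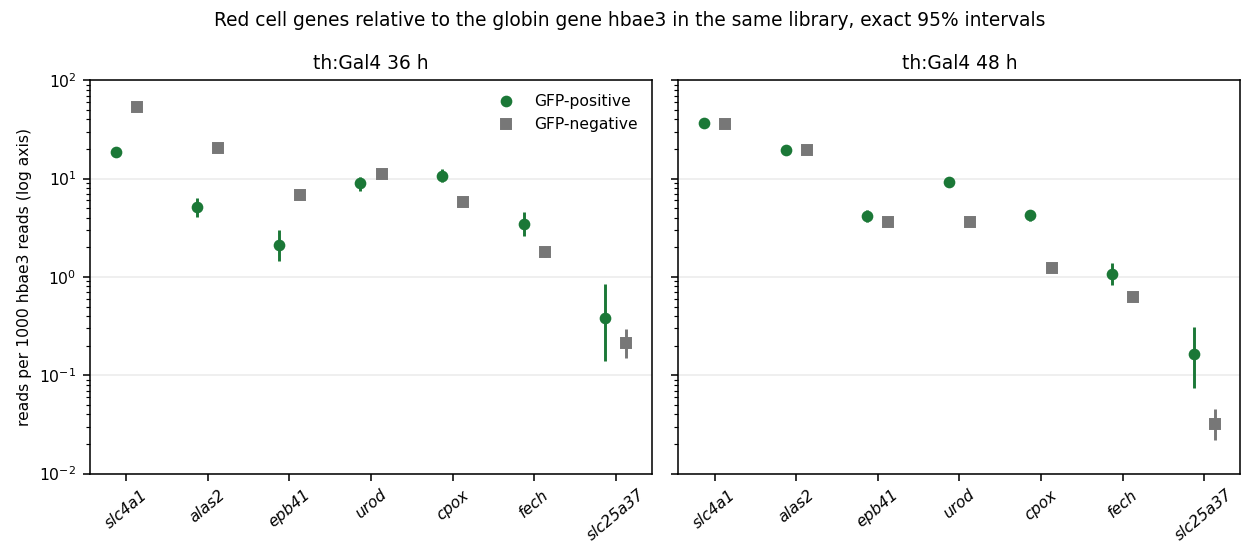
Reads per 1000 hbae3 reads (log axis) in the 36 h and 48 h libraries, GFP-positive as green circles left of GFP-negative as grey squares, with exact 95% intervals; values are not divided by length, so heights compare libraries within a gene and not genes. For slc4a1, alas2 and epb41 the circles lie below the squares at 36 h, and those of slc4a1 and alas2 overlap them at 48 h, while cpox, urod and fech have higher circles at 48 h.

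Most of the red cell genes were higher at 48 h than at 36 h in both sorts. In GFP-positive cells the log2 ratio of 48 h over 36 h was 0.90 for hbbe1.1, 1.13 for hbae3, 3.03 for alas2, 1.16 for urod, 2.11 for slc4a1 and 2.06 for epb41, with intervals above 0. In GFP-negative cells it was 2.85 for hbbe1.1, 2.45 for hbae3, 2.38 for alas2, 0.83 for urod, 0.94 for fech, 1.86 for slc4a1 and 1.53 for epb41. Among the genes listed for both sorts, hbbe1.1 and hbae3 thus had larger ratios in GFP-negative cells. Alas2, urod, slc4a1 and epb41 had larger ratios in GFP-positive cells. These differences between the sorts were not tested. The other globin features did not all share the rise in GFP-positive cells. Summed, the 11 others gave -0.04 in GFP-positive cells (0.51 with library size scaling) and 1.98 in GFP-negative cells, and hbae1 had 122 reads at 48 h and 611 at 36 h in GFP-positive cells (-2.98, interval -3.30 to -2.73). All 13 together gave 0.33 in GFP-positive cells (0.87 with library size scaling) and 2.23 in GFP-negative cells. Cpox stood at -0.21 (-0.50 to 0.09) in GFP-positive cells, 0.34 with library size scaling, and at 0.22 (0.10 to 0.34) in GFP-negative cells, -0.12 with library size scaling. Fech did not share the rise in GFP-positive cells, with 59 reads at 48 h and 54 at 36 h (-0.54, interval -1.11 to 0.0), under the minimum. Slc25a37, under the minimum in both sorts, stood at -0.08 (-1.75 to 1.67) in GFP-positive and -0.27 (-1.03 to 0.44) in GFP-negative cells. Of the members that passed, 3 of 7 in GFP-positive cells were at least 4-fold higher at 48 h, against 6.91% of all passing features, and 3 of 8 in GFP-negative cells, against 0.943%. In GFP-positive cells the 3 were alas2, slc4a1 and epb41. There alas2 and epb41 were at 3.51 and 1.45 CPM at 36 h. These genes passed through the 48 h library only, where they are high. For genes with many reads, library size scaling would add 0.55 to the log2 ratios in GFP-positive and -0.34 to those in GFP-negative cells.

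The GFP-positive libraries of the th:Gal4 experiments also held RNA of cells that are not neurons. At 36 h ctsl1b, he1a and he1b, 3 genes of the hatching gland, had 263868 reads in GFP-positive and 473 in GFP-negative cells, or 1.16% and 0.00222% of exon reads, and the 7 heart genes 32902 reads in GFP-positive and 128 in GFP-negative cells. At 48 h the hatching gland genes had 100273 reads in GFP-positive and 3985 in GFP-negative cells. No gene of either list was at 0 in these libraries, and their part in the red cell differences was not tested. The 11 measured leukocyte genes, blood cells that share the circulation, had 7833 reads in GFP-positive and 16253 in GFP-negative cells at 36 h (log2 ratio -0.37), and 25591 in GFP-positive and 47646 in GFP-negative cells at 48 h (-0.87), most of them from lyz. At 36 h the median of the 7 leukocyte genes that passed was -1.27, beside -2.94 for the red cell genes. Of these 7, 2 were at least 4-fold lower, lcp1 (-2.66) and mfap4 (-2.62), beside 1.65% of all passing features. Coro1a, mpx and mpeg1 stood at -1.81, -1.27 and -1.07, and spi1 and lyz at -0.84 and -0.1. Lcp1, mfap4 and mpeg1 were under 5 CPM in GFP-positive cells and passed through the GFP-negative library only. Il1b, which did not pass, had 0 reads in GFP-positive and 33 in GFP-negative cells. At 48 h the median of the 9 leukocyte genes that passed was 0.25, beside -3.98. Their part in the red cell differences was not tested.

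In the vmat2 experiment the 24 h GFP-positive library stood apart in other blood and vessel genes, and in heart and hatching gland genes as well. Of the 11 measured leukocyte genes, 10 had reads, and all 10 were at least 4-fold higher in GFP-positive cells, beside 10.9% of all passing features. All 10 passed the minimum through the GFP-positive library only. The list had 1441 reads in GFP-positive and 5 in GFP-negative cells, with il1b at 0 in both. The most abundant were lcp1, with 472 reads in GFP-positive and 3 in GFP-negative cells, and coro1a, with 305 in GFP-positive and 0 in GFP-negative cells. The 11 endothelial genes had 3804 reads in GFP-positive and 206 in GFP-negative cells. The 7 heart genes had 2094 and 31 reads in GFP-positive and GFP-negative cells, and the 3 hatching gland genes 586 and 45. In otpb the endothelial genes had 153 and 1016 reads in GFP-positive and GFP-negative cells and the leukocyte genes 26 in GFP-positive and 64 in GFP-negative cells. There the heart genes had 214 and 167 reads in GFP-positive and GFP-negative cells, and the hatching gland genes 840 and 146. The part of these gene lists in the differing urod, fech and cpox ratios of the 24 h lines was not tested.

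The rest of the heme pathway was measured through 6 further genes. At 48 h 4 of the 6 were at least 4-fold lower in GFP-positive cells, beside 1.22% of all passing features. Hmbsb had 1025 reads in GFP-positive and 7994 in GFP-negative cells (-2.94), and ppox had 224 in GFP-positive and 1627 in GFP-negative cells (-2.82). Uros had 239 in GFP-positive and 1402 in GFP-negative cells (-2.52), and alad had 606 in GFP-positive and 2698 in GFP-negative cells (-2.13). These enzymes all act between alas2 and fech: alad, hmbsb and uros build the ring that urod, cpox and ppox then modify. At 36 h hmbsb was the one past 4-fold, with 99 reads in GFP-positive and 2459 in GFP-negative cells (-3.93). Alas1, the housekeeping form of the enzyme that alas2 provides in red cells, was higher in GFP-positive cells at 48 h, with 2760 reads there and 722 in GFP-negative cells (1.96, interval 1.84 to 2.08). At 36 h alas1 had 334 reads in GFP-positive and 481 in GFP-negative cells (0.15, interval -0.05 to 0.36). The median of the 6 genes was -1.66 at 36 h and -2.32 at 48 h. In vmat2 the 3 that passed were alad at 1.21 (0.06 to 3.04), alas1 at 0.41 (-0.50 to 1.44) and hmbsb at 0.26 (-0.63 to 1.23). Each of them reached 20 reads in the GFP-positive library only, so the minimum favoured genes that are high there. The 3 that did not pass lay below 0: hmbsa at -0.76, ppox at -0.35 and uros at -0.23. Summed, the 6 genes gave 0.10 (-0.32 to 0.53) in vmat2.

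Genes of iron and heme handling were mixed. Of 15 passing genes at 36 h 3 were at least 4-fold lower, and of 16 at 48 h 2 were lower and 1 higher, with medians of -0.42 and -0.18. Of all passing features 1.65% at 36 h and 1.22% at 48 h were as much lower, and 9.3% at 48 h as much higher. Among the lower genes at 36 h abcb10 and nt5c2l1 were under 5 CPM in GFP-positive cells and passed through the GFP-negative library only. The higher gene at 48 h, aco1, passed through the GFP-positive library only. Tfr1a, the transferrin receptor through which red cells take up iron, had 0 reads in GFP-positive and 94 in GFP-negative cells at 36 h, at least 19.5-fold lower against a floor of 3 reads. It had 13 reads in GFP-positive and 75 in GFP-negative cells at 48 h (-2.34), and 10 in GFP-positive and 134 in GFP-negative cells of otpb (-2.40). In vmat2 it stood the other way, with 101 reads in GFP-positive and 55 in GFP-negative cells (0.56, interval 0.08 to 1.07). Tfr1a was thus lower in GFP-positive cells in 3 experiments, under 5 CPM at 36 and 48 h, and higher in vmat2. Nt5c2l1 had 55 reads in GFP-positive and 1335 in GFP-negative cells at 36 h (-3.88), and 407 in GFP-positive and 5629 in GFP-negative cells at 48 h (-3.76). Its ratios lay within the range of the red cell genes at both ages. Slc11a2, an iron transporter of the endosome, had 2 reads in GFP-positive and 38 in GFP-negative cells at 36 h, under 5 CPM (-2.84, interval -6.66 to -1.62). Blvrb, a biliverdin reductase, had 1333 reads in GFP-positive and 6424 in GFP-negative cells at 48 h (-2.24). The gene that ran the other way at 48 h was aco1, which also serves as an iron regulatory protein, with 135 reads in GFP-positive and 21 in GFP-negative cells (2.60). In vmat2 hmox1, which breaks down heme, had 35 reads in GFP-positive and 5 in GFP-negative cells (2.15, interval 1.14 to 4.21).

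Red cell membrane and cytoplasmic genes outside the 9 were mixed too. At 36 h 6 of 14 passing genes were at least 4-fold lower and 1 higher (median -1.16), and at 48 h 5 of 16 were lower and 3 higher (median -0.17). Of all passing features 1.65% were 4-fold lower and 5.67% higher at 36 h, and 1.22% and 9.3% at 48 h. Among the lower genes add2, tmod4, rhag and rhd at 36 h, and add2 at 48 h, were under 5 CPM in GFP-positive cells. They passed through the GFP-negative library only. Among the higher genes add3b and mpp1 at 48 h passed through the GFP-positive library only. The minimum thus favoured genes that are high in the library through which they passed. Cahz, a red cell carbonic anhydrase, had 216 reads in GFP-positive and 4247 in GFP-negative cells at 36 h (-3.61), and 1692 in GFP-positive and 21799 in GFP-negative cells at 48 h (-3.66). The Rh gene rhd had 29 reads in GFP-positive and 706 in GFP-negative cells at 36 h (-3.86), and 221 in GFP-positive and 2193 in GFP-negative cells at 48 h (-3.27). Add2, a beta adducin, had 5 reads in GFP-positive and 142 in GFP-negative cells at 36 h (-3.79), and the beta spectrin gene sptb had 221 in GFP-positive and 2845 in GFP-negative cells at 48 h (-3.65). At the ages given, these 4 were the genes of the list furthest below 0, and others of the list were not lower at 48 h: the adducin add1 had 2177 reads in GFP-positive and 2281 in GFP-negative cells (-0.04), and the ankyrin ank1 145 in GFP-positive and 42 in GFP-negative cells (1.77). Rhag, the partner of Rh proteins in the membrane, was further from 0 at 36 h than at 48 h. It had 92 reads in GFP-positive and 965 in GFP-negative cells at 36 h (-2.69), and 2618 in GFP-positive and 3571 in GFP-negative cells at 48 h (-0.42, interval -0.50 to -0.35).

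Some members of the membrane list were higher in GFP-positive cells. Ca2, a more widely used carbonic anhydrase, had 1333 reads in GFP-positive and 344 in GFP-negative cells at 36 h (2.63), and 3954 in GFP-positive and 434 in GFP-negative cells at 48 h (3.21). At 48 h add3b had 278 reads in GFP-positive and 32 in GFP-negative cells (3.07), and mpp1 868 in GFP-positive and 137 in GFP-negative cells (2.67). In vmat2, the line with the leukocyte and endothelial reads above, mpp1 had 96 reads in GFP-positive and 10 in GFP-negative cells (2.75), and gypc 26 in GFP-positive and 2 in GFP-negative cells (2.59, interval 1.40 to 6.51). In the same line cahz had 0 reads in GFP-positive and 9 in GFP-negative cells, too few to pass the minimum. In otpb mpp1 had 13 reads in GFP-positive and 51 in GFP-negative cells (-0.71, interval -1.77 to 0.13). There cahz had 0 reads in GFP-positive and 28 in GFP-negative cells, at least 4.05-fold lower, and rhag 3 in GFP-positive and 37 in GFP-negative cells (-2.03, interval -4.76 to -0.76).

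Of the erythroid transcription factors and their partners, 4 of 14 passing genes at 36 h and 6 of 13 at 48 h were at least 4-fold lower in GFP-positive cells, beside 1.65% and 1.22% of all passing features. At 36 h these 4 were under 5 CPM in GFP-positive cells and passed through the GFP-negative library only. So did gata1a, nfe2 and ikzf1 at 48 h, and the minimum thus favoured genes that are high in GFP-negative cells. Gata1a, the zinc finger factor needed for red cell formation, had 14 reads in GFP-positive and 413 in GFP-negative cells at 36 h (-4.06, interval -5.09 to -3.44). At 48 h gata1a had 82 reads in GFP-positive and 1303 in GFP-negative cells (-3.93, interval -4.30 to -3.64), an interval that holds the ratios of slc4a1 and alas2. Klfd, an erythroid Krüppel-like factor, had 0 reads in GFP-positive and 43 in GFP-negative cells at 48 h, under 5 CPM and at least 14.1-fold lower, and znfl2a had 313 in GFP-positive and 3632 in GFP-negative cells (-3.50). Lmo2, a partner of gata1a and tal1, had 22 reads in GFP-positive and 447 in GFP-negative cells at 36 h (-3.57), and myb had 8 in GFP-positive and 130 in GFP-negative cells (-3.12). The separate feature cmyb had more reads at 36 h, 404 in GFP-positive and 908 in GFP-negative cells, and lay nearer to 0 (-0.49, interval -0.66 to -0.32). The signalling factor stat5.1, with 116 reads in GFP-positive and 10 in GFP-negative cells (3.32, under 5 CPM), and klf3, with 1334 in GFP-positive and 314 in GFP-negative cells (2.11), were higher at 48 h. In vmat2 4 of 15 passing genes were at least 4-fold higher in GFP-positive cells, beside 10.9% of all passing features. All 4 reached 20 reads in the GFP-positive library only, so the minimum favoured genes that are high there. Among these 4, cmyb had 207 reads in GFP-positive and 18 in GFP-negative cells (3.10), ikzf1 54 in GFP-positive and 6 in GFP-negative cells (2.55), and gata2a 20 in GFP-positive and 1 in GFP-negative cells (2.69, interval 1.37 to 9.39), genes that white blood cell precursors also use. The feature myb had 36 reads in GFP-positive and 42 in GFP-negative cells of vmat2 (-0.50, interval -1.21 to 0.15). In otpb tal1 had 1 read in GFP-positive and 20 in GFP-negative cells (-2.16, interval -8.49 to -0.47).

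Over the 4 experiments from 24 to 48 h, features outside the 9 members and the gene lists were compared with the members' median ratios. The nearest were LOC558552, klf4, ZCCHC6, drl and ddx46. With members and listed genes included, 4496 features had at least 20 reads in the larger library of all 4 experiments. Listed genes were not ranked and can lie nearer. Among them hbbe3 had log2 ratios of -0.55 in vmat2, -0.63 in otpb, -2.22 at 36 h and -4.05 at 48 h. The members' medians were -0.36, -0.86, -2.94 and -3.98 in the same order. The measure is the root mean square difference of the 4 log2 ratios, and 8 of the 9 members could be placed by it, at 0.36 for hbae3 to 1.80 for cpox. LOC558552 lay at 0.61, with log2 ratios of -0.08 in vmat2, -1.91 in otpb, -3.36 at 36 h and -3.62 at 48 h. At 48 h it had 185 reads in GFP-positive and 2339 in GFP-negative cells. Klf4 lay at 1.03 and ZCCHC6 at 1.07, and drl (draculin), at 1.29, had 10 and 210 reads in GFP-positive and GFP-negative cells at 36 h. Ddx46 lay at 1.31. Both ZCCHC6 and ddx46 were under 5 CPM at 36 and 48 h. At 48 h ZCCHC6 had 4 reads in GFP-positive and 28 in GFP-negative cells, and ddx46 had 8 and 39. The likeness rests on 4 pairs of libraries.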

How the data were processed

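The 9 genes, the wider gene lists and the tests were chosen with earlier results of these data known, and further genes were named by rule. From each list these were the genes past 4-fold with at least 20 reads in the larger library, at most 3 per list, direction and experiment. Outside the 9 genes and the lists they were the 5 features nearest to the members' median pattern. Hbae1 at 36 h, ba1l, alas1, alad, rhag at 36 and 48 h, add1, ank1, values of named genes in further experiments and the other globin features were named after their values were seen. The tables name the Zv9 build; which aligner made them is not given in the sources used here. Per the file headers, the authors deposited counts of total exon, unique exon and whole-gene reads for the vmat2 experiment, with RPKM values (reads scaled by exon length and library total). For the other 5 tables, whose 174 columns of library values name no sample and were not used, the authors deposited a difference and a signed fold change of RPKM, recorded as a score. These give both RPKM levels, and dividing by the value of 1 read gave whole reads, used in place of the planned library counts, for 100.0% of values, within 0.02 of a whole number, in all 12 libraries. In the vmat2 table the recovered reads equalled the deposited counts in all 32312 features. A difference of 0 was read as 0 reads in both libraries, since equal levels above 0 would need at least 35812 reads. Of the features, 4483 have an exon length of 0.

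Each pair was scaled by TMM (edgeR 4.0.16, R 4.3.3) computed on features with at least 20 reads in the pair, a restriction chosen after the tables had been seen. Log2 ratios carry a prior count of 2, and intervals are exact Clopper-Pearson 95% intervals of the read ratio without a prior count, covering counting error only, as do folds against a floor of 3 reads. Features passed with 5 CPM and 20 reads in the larger library, and a 4-fold difference was counted. Alternatives were library size, median-of-ratios (DESeq2 1.42.0) and trimmed-total scaling, a prior count of 0.5, other minimums and the other vmat2 read counts. Gene symbols were matched to RefSeq (GRCz12tu) for names only. No sequences are shown.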

Additional observations from a re-analysis of the deposited data

Results flagged for a closer look

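The globin ratios lay on opposite sides of 0 in 2 experiments that sorted cells by th transgenes. Hbbe1.1 stood at 2.41 at 72 h and -4.32 at 48 h, and hbae3 at 2.03 at 72 h and -4.12 at 48 h, on the log2 scale of GFP-positive over GFP-negative. The difference between the experiments was not tested, line, age and depth differ between them, and the direction of both tables rests on a sheet heading they share with the vmat2 table.

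Urod stood at 0.56 in the vmat2 experiment and -3.09 at 36 h, and fech at 1.27 in the vmat2 experiment and -3.3 at 48 h. These differences were not tested either, and line, age and assay differ.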

How the results depend on the processing

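No paired analysis was possible because each group holds 1 library, so that no block can be fitted; each ratio already compares the libraries of 1 experiment. For the same reason no library could be left out. Of the 205 values of group sums and counts under the alternatives, 171 moved by less than their counting interval or stayed within 1.5 times the count, 33 moved and 1 changed sign; of 307 values of single genes, 260, 46 and 1. Median-of-ratios scaling and a prior count of 0.5 moved none of the group sums or counts beyond that.

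With library size scaling the summed log2 ratios in vmat2 were -0.81 for the globins, 1.11 for heme synthesis and 0.43 for iron import and membrane, the last reversed against -0.23; at 36 h -3.35, -4.03 and -5.08; at 48 h -4.1, -3.55 and -3.93. For 48 h over 36 h they were 1.56, 1.94 and 2.63 in GFP-positive and 2.31, 1.46 and 1.48 in GFP-negative cells, and cpox in GFP-negative cells reversed to -0.12. Totals without the 4 most abundant features and the globins gave -3.34, -4.01 and -5.06 at 36 h and -4.25 for the globins at 48 h. TMM factors from all features, added after the data were seen, gave globin sums of -2.61 at 36 h, -4.24 at 48 h, 1.96 at 72 h, and 1.05 and 2.67 for 48 h over 36 h in GFP-positive and GFP-negative cells. All 13 globin features, also added later, gave -0.7 in vmat2, 0.54 in otpb, -2.33 at 36 h, -4.24 at 48 h, and 0.33 and 2.23 for 48 h over 36 h in GFP-positive and GFP-negative cells. Of the counts, 1 member was 4-fold lower in vmat2 with whole-gene reads, against 0; 1 in otpb with a minimum of 50 reads, against 2; and 1 was 4-fold higher at 72 h with library size scaling or TMM factors from all features, against 2. The causes of these shifts were not tested. At 72 and 96 h 7 of the 9 genes had 0 to 2 reads, too few to show a difference.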
